A study of Mus musculus with 4 samples.

Results

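The Hox genes of 4 clusters were described across 4 gene expression arrays of Neuro2a (N2a) cells, a mouse neuroblastoma line. A gene was a member where its symbol in the array annotation was Hoxa, Hoxb, Hoxc or Hoxd followed by a paralogue number. This gave 31 genes of 24171, read by 39 of the 44170 targets on each array. A target is a transcript read by a small set of probes. The members were 11 Hoxa, 8 Hoxb, 7 Hoxc and 5 Hoxd genes, and Hox genes outside this set were not analysed here. Consecutive members are therefore not always direct neighbours along a cluster. By the labels, 2 arrays were of cells transfected with a scramble siRNA and called control, hereafter the controls, and the other 2 were of cells given Men1 siRNA and called Men1 knockdown. All cells were grown in DMEM with fetal bovine serum, and total RNA was taken with Trizol. Neither siRNA's sequence, dose nor time after transfection is given in the sources used here. Nothing in the labels says that the arrays of a group came from separate cultures, so p-values cover the spread among these 4 arrays alone, and that spread may be technical.

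Hox genes encode homeodomain transcription factors that give cells their position along the head to tail axis, and in the limbs, kidney, gut and reproductive tract. In each cluster the genes lie in the order of their paralogue numbers. Those with low numbers, at the 3′ end, are switched on early and up to the hindbrain, and those with high numbers, at the 5′ end, later and in the trunk, tail and distal limb. Genes of the same number in different clusters are paralogues that share most of their homeodomain. Active Hox clusters carry trimethylated histone H3 lysine 4, set by MLL methyltransferases, and silent ones carry the Polycomb mark. Menin, the product of Men1, binds MLL1 and MLL2 and is needed for their action at Hox genes in blood and leukaemia cells. N2a cells derive from the neural crest lineage.

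The values were deposited as linear intensities, and a value of 100 or more was counted as well above background. Array medians lay between 145.9 and 151.2, and random control probes between 42.8 and 52.3. Intensities of different targets were not set against each other, since probes differ in brightness. Men1 itself had 6985 and 6222 in the controls against 2764 and 4109 after its siRNA. Its log2 change of −0.97 ± 0.35 (SE, n = 2 arrays per group) was not past the threshold (limma adjusted p = 0.314). Of 13 markers of sympathoadrenal neuroblasts, the cells that neuroblastoma resembles, 7 were at 100 or more on both scramble siRNA arrays and 8 on both Men1 siRNA arrays. The neuronal genes Stmn2, Chga and Chgb were among them. Th, the rate-limiting enzyme of catecholamine synthesis and a defining gene of that lineage, was close to the level of 100, at 95.0 and 129 in the controls against 142 and 113.

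The question put to the Hox genes was how they differ between the groups when Men1 is targeted. Hoxa10, Hoxa11, Hoxb8 and Hoxd9 fell with Men1 siRNA, and no Hox gene rose. In limma, at an adjusted p under 0.05, this made 4 of 31 lower, 0 higher and 27 not past the threshold. Over all genes 0.352% passed as lower and 0.0372% as higher. At an unadjusted p under 0.05, 12 Hox genes were lower and 1 was higher, where 7.74% and 6.47% of all genes were. For 15 Hox genes the whole Men1 siRNA group lay below the controls, for 7 it lay above, and for 9 the groups overlapped. Over all genes 21.7% lay wholly below and 25.8% wholly above. The median log2 change was −0.81 over the Hox genes and 0.06 over all genes, with a range from −6.07 for Hoxa11 to 1.36 for Hoxc10. Where the RNA of a transcript is lower, fewer cells that make it and less of it per cell cannot be told apart. The calls rest on all 4 arrays. No call held without any 1 of them, where 1 group is left with a single array. With 2 arrays a group, no two-sided exact permutation p can be under 0.33. The count also moved with the model. It was 8 with a prior that follows intensity (2.43% of all genes passed as lower), 8 of 16 with dim genes left out (3.68%), 7 with a pseudocount of 32 (0.972%) and 1, Hoxa10, with values under 100 set to 100. The dim gene filter kept genes at 100 or more on both arrays of either group. Of the 8 called after it, all but Hoxa10 were kept through the control arrays alone, so that count is not separate support.

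The members described below as the lower genes are those lower by at least 1 log2 unit without overlap: Hoxa7, Hoxa9, Hoxa10 and Hoxa11, Hoxb4 to Hoxb8, and Hoxd9 and Hoxd10. These are 11 of 31, where 7.68% of all genes met the same rule. All 11 were at 100 or more on both scramble siRNA arrays. With Men1 siRNA both arrays were under 100 for 4 of them, 1 array for 6, and neither for Hoxa10 alone. Over all 31 members, 14 were at 100 or more on both scramble siRNA arrays (45.2%, against 58.0% of all genes), and 5 on both Men1 siRNA arrays (16.1%, against 57.5% of all genes). No Hox gene read over 272 on a Men1 siRNA array, the value of Hoxa3 on replicate 2. There were 9 members (29.0%) under 100 on all 4 arrays, against 21.0% of all genes.

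**Figure D1:**
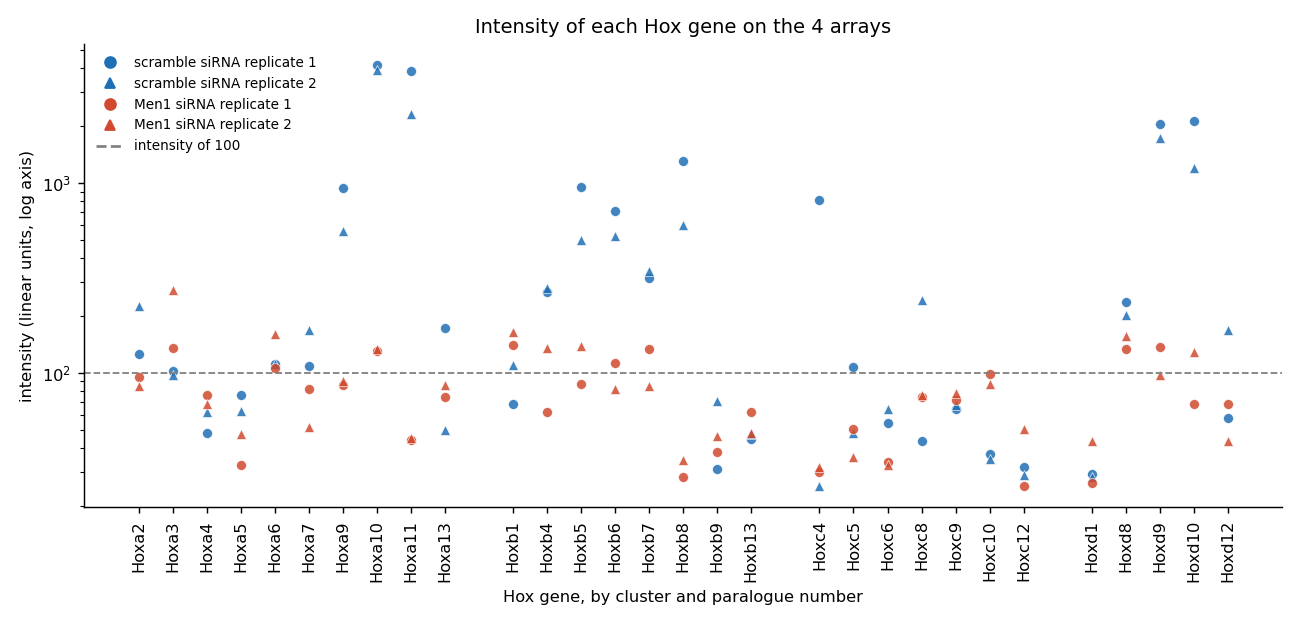
Intensity of Hox genes on the 4 arrays, on a log axis, with genes ordered by cluster and paralogue number; circles and triangles are replicates 1 and 2, blue is scramble siRNA and red Men1 siRNA, and the dashed line marks an intensity of 100. Hoxa9 to Hoxa11, Hoxb4 to Hoxb8, Hoxd9 and Hoxd10 have both blue symbols far above both red ones, while no Hoxc gene has both blue symbols above the line; heights of different genes are not comparable.

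In the Hoxa cluster the lower genes stood together at the 5′ side. Hoxa11, a patterning gene of the forearm, kidney and uterus (gene ID 15396, chromosome 6, 52192931 to 52195744 on MM9), had 3899 and 2305 in the controls against 44.0 and 45.1 with Men1 siRNA. It was thus bright on both control arrays and below the random probes on both others. It was at least 30.0-fold lower (log2 change −6.07 ± 0.38, SE, n = 2 per group; limma adjusted p = 0.0275). Hoxa10, a gene of the uterus, the limb and blood progenitors (gene ID 15395, chromosome 6, 52181195 to 52184910), had 4170 and 3922 against 130 and 133. The arrays of each group were close to each other, and all 4 were above 100. Its mean went from 4046 ± 175 to 131 ± 2.36 (SD, n = 2), which is 3.24% of the control level. On the log2 scale it fell by 4.95 ± 0.30 (SE; limma adjusted p = 0.0275).

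Hoxa9, a regulator of blood stem cells and an MLL target in leukaemia, had 943 and 556 in the controls against 86.6 and 90.3. It was at least 7.24-fold lower but did not pass (log2 change −3.03 ± 0.38, SE, n = 2 per group; limma adjusted p = 0.0587). Hoxa7, a gene of the thoracic segments, had 108 and 168 against 82.4 and 51.9, at least 1.35-fold lower (log2 change −1.04 ± 0.41; limma adjusted p = 0.342). Its groups did not overlap, but its control values were close to 100. Hoxa9 to Hoxa11 cover 22.6 kb of chromosome 6, from 52173098 to 52195744 on MM9.

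The other 7 Hoxa genes had log2 changes from −0.90 to 0.95, and none passed. Hoxa13, the last gene of the cluster and a gene of the digits and genital tract, had 172 and 50.1 against 74.7 and 86.7, with the Men1 siRNA values between the control ones. Hoxa3 and Hoxa4 were above their control arrays without overlap. Hoxa3, a gene of the thymus, parathyroid and pharyngeal arches, had 103 and 96.9 against 136 and 272 (log2 change 0.95 ± 0.43). Hoxa4 was under 100 on all 4 arrays. Hoxa5, a gene of lung and respiratory muscle control, was also under 100 on all 4, at 76.2 and 62.8 against 32.8 and 47.6, and Hoxa6 had 112 on both control arrays against 107 and 160. Hoxa2, which sets the identity of the second pharyngeal arch, had 125 and 225 against 95.5 and 84.9 (log2 change −0.90 ± 0.40).

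In the Hoxb cluster the lower genes were Hoxb4 to Hoxb8, which are all 5 members with these paralogue numbers. Hoxb8, a gene of myeloid progenitors and the spinal cord (gene ID 15416, chromosome 11, 96143218 to 96146629 on MM9), had 1301 and 601 in the controls against 28.3 and 34.7. Both Men1 siRNA values lay below those of the random probes on the same arrays. It was at least 8.85-fold lower (log2 change −4.82 ± 0.46, SE, n = 2 per group; limma adjusted p = 0.0358). The other 4 had the same direction without passing.

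Hoxb7, a gene of the ureteric bud, had 315 and 342 against 133 and 84.9, with a log2 change of −1.63 ± 0.36 (SE, n = 2; limma adjusted p = 0.162). Hoxb6, a gene of lateral plate mesoderm and forelimb, had 714 and 527 against 113 and 81.9, with −2.67 ± 0.36 (limma adjusted p = 0.0678). Each had 1 Men1 siRNA array above and 1 under 100. Hoxb5, a gene of lung mesenchyme and the enteric nervous system, had 952 and 500 against 87.7 and 138, with −2.65 ± 0.46 (limma adjusted p = 0.104). Hoxb4, a regulator of blood stem cell renewal, had 268 and 279 against 62.5 and 135, with −1.57 ± 0.45 (limma adjusted p = 0.240). For these 2 genes it was replicate 1 of Men1 siRNA that was under 100, and for Hoxb6 and Hoxb7 replicate 2.

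For the members on either side of Hoxb4 to Hoxb8 a fall could not be measured, since control values were near or under 100. Hoxb2 and Hoxb3 were not members, so Hoxb1 is not the direct neighbour of Hoxb4. Hoxb9 and Hoxb13, the 5′ members, were under 100 on all 4 arrays, with log2 changes of −0.15 and 0.24. Hoxb1, the 3′ member that marks a single hindbrain segment, had 68.8 and 110 against 140 and 164, a log2 change of 0.80 ± 0.37 (SE, n = 2; limma adjusted p = 0.403). Hoxb4 to Hoxb8 cover 38.7 kb of the 173 kb between the first and last Hoxb member, from 96143218 to 96181914 on chromosome 11.

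In the Hoxd cluster Hoxd9 and Hoxd10 were lower. Hoxd9, a gene of the lumbosacral axis and the limb (gene ID 15438, chromosome 2, 74535819 to 74538265 on MM9), had 2041 and 1726 in the controls against 136 and 97.3. It fell by 4.03 ± 0.34 (SE, n = 2 per group) on the log2 scale (limma adjusted p = 0.0346). Hoxd10, a gene of the hindlimb and lumbar motor neurons, had 2115 and 1192 against 68.9 and 129, a log2 change of −4.07 ± 0.48 that did not pass (limma adjusted p = 0.0508). Both genes had both control arrays far above both others, and 1 Men1 siRNA array under 100. Hoxd8, a gene of the trunk, had 236 and 201 against 134 and 155, a log2 change of −0.60 ± 0.32 (limma adjusted p = 0.454), all above 100. Hoxd8 to Hoxd10 cover 15.4 kb of the 89.9 kb between the first and last Hoxd member, from 74530004 to 74545364 on chromosome 2. Hoxd1, at the 3′ end, was under 100 on all 4 arrays, and Hoxd12, a gene of the digits, had 57.7 and 168 against 68.4 and 43.9, with overlap.

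No Hoxc gene was at 100 or more on both arrays of either group, and none passed. Hoxc10, a gene of the lumbar region and hindlimb, had 37.2 and 35.2 in the controls against 99.0 and 87.6. Its log2 change of 1.36 ± 0.31 (SE, n = 2 per group) did not pass (limma adjusted p = 0.169), and no fold is given because every value was under 100. It was the 1 member of 31 higher by at least 1 log2 unit without overlap, where 5.77% of all genes were. Hoxc4, a gene of the neck and upper trunk, had 811 on scramble siRNA replicate 1 but 25.4 on replicate 2, against 29.9 and 32.01 with Men1 siRNA. Hoxc8, a gene of brachial motor neurons, had the reverse, 43.7 on replicate 1 and 241 on replicate 2, against 74.6 and 76.1. Hoxc6, a gene of the brachial region, was under 100 throughout but lower without overlap, at 54.6 and 64.1 against 34.1 and 32.9 (log2 change −0.82 ± 0.31; limma adjusted p = 0.329). Hoxc5 had 108 and 48.1 against 50.3 and 36.1, and Hoxc9 and Hoxc12 were under 100 on all 4 arrays. Hoxc4 to Hoxc8 were negative and Hoxc9 to Hoxc12 positive, but Hoxc4 had 0.29 without scramble siRNA replicate 1, Hoxc8 had 0.79 without replicate 2, and Hoxc12 had −0.27 without Men1 siRNA replicate 2. The median over the 7 genes was −0.45, and it was 0.15 without scramble siRNA replicate 1 and 0.16 without replicate 2. The Hoxc members span 100.1 kb of chromosome 15, from 102767187 to 102867283 on MM9.

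**Figure D2:**
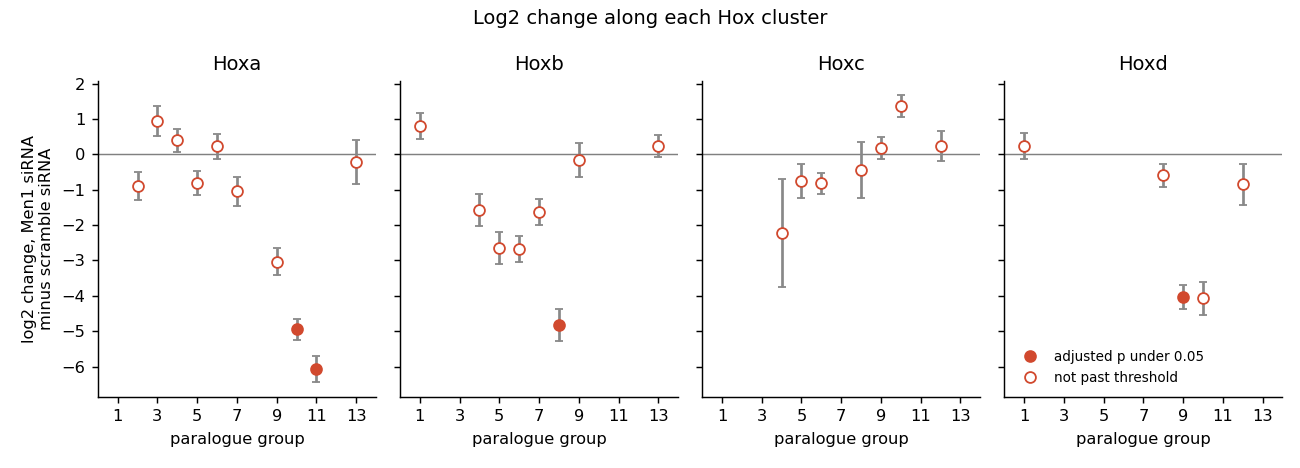
Log2 change (Men1 siRNA minus scramble siRNA) of Hox genes against their paralogue group, 1 panel per cluster; points are limma estimates from 2 arrays per group, bars are ± 1 SE, and filled points have an adjusted p under 0.05. The lower genes lie at groups 7 and 9 to 11 of Hoxa, 4 to 8 of Hoxb, and 9 and 10 of Hoxd, with values near 0 or above at Hoxb1 and Hoxd1.

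By position along the clusters, Hoxb1, Hoxd1 and Hoxa3 at the 3′ side had log2 changes of 0.80, 0.24 and 0.95, and Hoxa2 had −0.90. The 14 members of groups 4 to 8 had a median of −0.93, with 9 wholly below and 1 wholly above. The 12 members of groups 9 to 13 had a median of −0.53, with 5 wholly below and 3 wholly above. Groups 12 and 13 had medians of −0.31 and 0.02 over 2 members each. Of the 14 members at 100 or more on both control arrays, 11 were the lower genes and the other 3 were Hoxa2, Hoxa6 and Hoxd8. The same share over the 14008 of all genes that bright in the controls was not computed, so 11 of 14 has no baseline here. The remaining members had at least 1 control array under 100, so where the lower genes begin and end along a cluster could be measured only in part. Hoxa6, beside Hoxa7, and Hoxd8, beside Hoxd9, were at 100 or more on all 4 arrays, with log2 changes of 0.22 and −0.60. The dimmer target of Hoxd8 had −2.94.

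In groups 8 to 10 the paralogues of a group did not share a value, while both members of group 7, Hoxa7 and Hoxb7, were lower genes. In group 10 the log2 change was −4.95 for Hoxa10 and −4.07 for Hoxd10 but 1.36 for Hoxc10. In group 9 it was −3.03 for Hoxa9 and −4.03 for Hoxd9, against −0.15 for Hoxb9 and 0.18 for Hoxc9. In group 8 it was −4.82 for Hoxb8, −0.60 for Hoxd8 (−2.94 by its dimmer target) and −0.45 for Hoxc8. In groups 9 and 10 the paralogues with values nearer 0 or above it were under 100 in the controls, where a lower value could not be measured. By cluster, the median was −0.81 for Hoxa, −1.60 for Hoxb and −0.85 for Hoxd, and these have no fixed order. The Hoxd median was −1.62 without scramble siRNA replicate 1, −1.77 with the mean of all targets and −2.94 with each target alone, and the Hoxa median −0.54 without Men1 siRNA replicate 1 and −0.29 and −0.21 in the last 2.

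More than 1 target read 7 of the Hox genes, and the brightest on average stood for the gene. The other target of Hoxd10 had 2474 and 1296 in the controls against 45.6 and 59.7. With each target fitted alone, both targets of Hoxd10 passed in limma, at −5.10 ± 0.43 (at least 17.9-fold lower; adjusted p = 0.0313) and −4.07 ± 0.48 (adjusted p = 0.0432). The targets of Hoxd8 differed. The dimmer of them had 347 and 204 against 26.1 and 46.1, at least 2.66-fold lower (log2 change −2.94 ± 0.45; limma adjusted p = 0.0790), where the brighter had −0.60. Hoxa3, Hoxa7 and Hoxb13 each had targets of opposite sign, with 0.95 and −0.81 for Hoxa3, −1.04 and 0.46 for Hoxa7, and 0.24 and −0.62 for Hoxb13. The other target of Hoxb1 had −0.00, where the brighter had 0.80. The 3 targets of Hoxa13 ran from −0.21 to 1.31 and were under 100 on all arrays but 1. Of all 39 Hox targets 6 passed as lower, where 0.341% of all targets did.

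**Figure D3:**
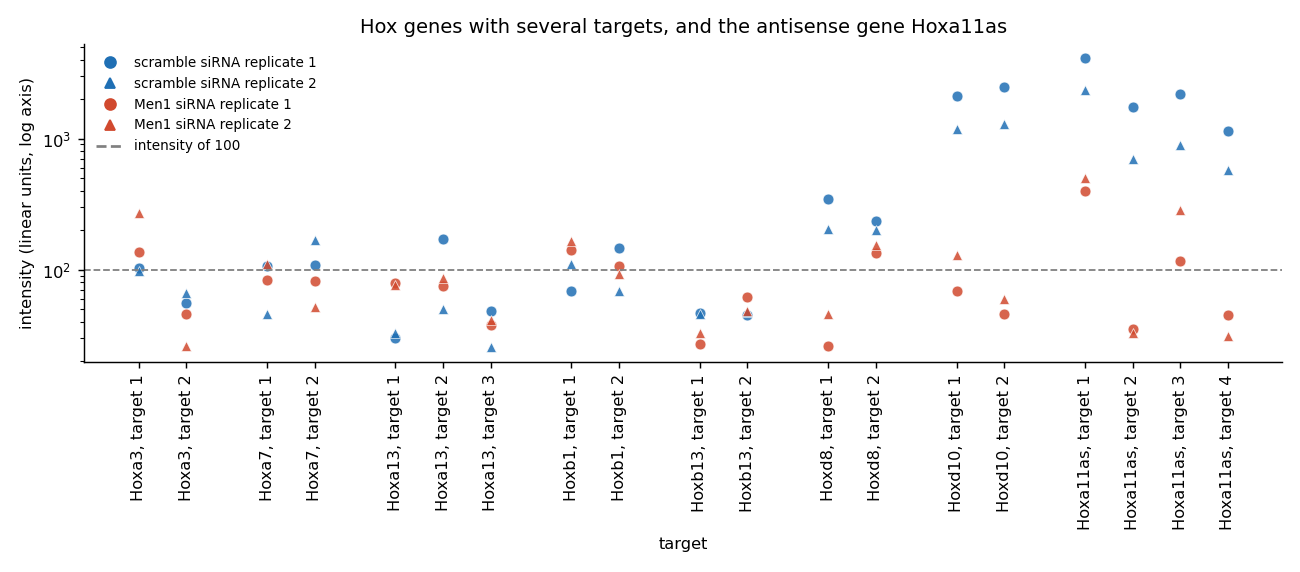
Intensity on the 4 arrays, on a log axis, of each target of the 7 Hox genes read by more than 1 target and of the antisense gene Hoxa11as; symbols and colours are scramble siRNA in blue, Men1 siRNA in red, replicate 1 as circles and replicate 2 as triangles, with a dashed line at 100. Both Hoxd10 targets and all 4 Hoxa11as targets have both control arrays above both Men1 siRNA arrays, while the targets of Hoxa3, Hoxa7, Hoxa13 and Hoxb13 differ in direction.

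The arrays also held 21 targets inside the clusters whose annotation did not give a member's symbol. Of these, 7 had no gene name, and whether an unnamed target is part of a coding Hox gene was not checked. Of the 21, 8 lay wholly below their controls and 4 wholly above, where 21.3% and 25.3% of all targets did. Hoxa11as (current symbol Hoxa11os), the noncoding RNA made from the other strand at Hoxa11, had 4 targets, all lower. Its log2 changes were −2.79 ± 0.40, −5.02 ± 0.50, −2.93 ± 0.61 and −4.43 ± 0.45 (SE, n = 2 per group), and the −5.02 and −4.43 passed with each target fitted alone (limma adjusted p = 0.0327 and 0.0335). The first of them had 4082 and 2350 in the controls against 400.1 and 499, all well above background. Of the 4, the first 2 overlap Hoxa11 by position and the other 2, from 52195983 to 52199794, do not. Whether the probes tell the strands apart is not given in the sources used here, so for the overlapping pair the sense and antisense RNA cannot be told apart. In the Hoxd cluster an unnamed target from 74564784 to 74586328 on chromosome 2 had 626 and 432 against 53.9 and 62.1, at least 5.20-fold lower. Another from 74533585 to 74535422, next to Hoxd9, had 288 and 206 against 89.6 and 52.7, at least 2.44-fold lower. Hoxb5os, antisense within the Hoxb run, had 103 and 59.3 against 84.7 and 169, with overlap.

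The promoters of the 4 genes that fell are shown because the CXXC domain of MLL binds unmethylated CG steps, in which the CpG islands of Hox promoters are rich. Sequences are from RefSeq on GRCm38.p6, cover 250 bases before to 50 after a gene's start, and are written 5′ to 3′ on the gene's strand with CG steps in capitals. The windows are chr6:52234890-52235189 and chr6:52240805-52241104 on the minus strand for the 2 starts of Hoxa10, chr6:52245761-52246060 on the minus strand for Hoxa11, chr11:96281655-96281954 on the plus strand for Hoxb8 and chr2:74697513-74697812 on the plus strand for Hoxd9.
Hoxa10, window from 52234890: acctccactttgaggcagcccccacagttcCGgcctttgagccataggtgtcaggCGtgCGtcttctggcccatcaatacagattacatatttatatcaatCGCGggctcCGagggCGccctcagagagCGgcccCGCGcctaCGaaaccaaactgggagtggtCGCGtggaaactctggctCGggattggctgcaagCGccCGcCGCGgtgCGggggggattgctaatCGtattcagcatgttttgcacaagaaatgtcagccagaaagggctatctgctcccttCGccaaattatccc
Hoxa10, window from 52240805: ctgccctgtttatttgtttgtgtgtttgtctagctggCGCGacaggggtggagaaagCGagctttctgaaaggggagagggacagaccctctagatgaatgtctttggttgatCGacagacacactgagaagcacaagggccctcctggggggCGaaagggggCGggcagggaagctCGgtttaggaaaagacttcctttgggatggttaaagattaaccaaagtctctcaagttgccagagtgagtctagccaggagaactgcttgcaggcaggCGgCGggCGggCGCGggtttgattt
Hoxa11: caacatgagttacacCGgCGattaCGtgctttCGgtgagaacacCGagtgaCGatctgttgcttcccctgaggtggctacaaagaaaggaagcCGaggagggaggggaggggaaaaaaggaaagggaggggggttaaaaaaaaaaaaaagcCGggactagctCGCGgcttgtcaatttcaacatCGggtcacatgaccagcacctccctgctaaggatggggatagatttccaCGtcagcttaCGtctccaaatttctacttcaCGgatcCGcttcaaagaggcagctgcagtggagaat
Hoxb8: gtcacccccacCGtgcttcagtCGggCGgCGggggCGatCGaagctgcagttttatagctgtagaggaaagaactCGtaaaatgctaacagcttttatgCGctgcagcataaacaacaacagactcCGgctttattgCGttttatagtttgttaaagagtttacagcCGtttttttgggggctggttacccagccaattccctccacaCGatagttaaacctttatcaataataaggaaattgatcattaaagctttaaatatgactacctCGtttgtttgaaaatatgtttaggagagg
Hoxd9: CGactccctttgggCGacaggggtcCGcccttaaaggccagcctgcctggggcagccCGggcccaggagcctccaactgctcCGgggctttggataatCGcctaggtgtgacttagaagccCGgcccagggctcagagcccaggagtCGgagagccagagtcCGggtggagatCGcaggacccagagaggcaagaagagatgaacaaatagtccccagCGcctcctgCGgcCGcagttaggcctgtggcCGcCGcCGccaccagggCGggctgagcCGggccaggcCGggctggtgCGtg
These windows held 21 and 12 CG steps for Hoxa10, 15 for Hoxa11, 13 for Hoxb8 and 20 for Hoxd9. The median was 14 over the 19 windows found for 18 of the 31 members, and 7 over all 32851 promoters. The 9 windows of 8 lower genes held 4 to 22 (median 14), and the 10 windows of other Hox genes 6 to 45 (median 16.5), so the ranges overlapped. The windows were searched on both strands for 4 short strings, none of which contains another: TTTATG (Cdx type), TGACAG (Meis type), TGATNNAT (Pbx and Hox type) and AGGTCA (retinoid receptor type). Among the 19 Hox windows 2, 2, 3 and 5 held them in that order, against 11.9%, 19.2%, 8.85% and 16.3% of all promoters. Of the 4 genes that fell, only Hoxb8 held any, the Cdx type in 2 places and the Pbx and Hox type in 1. A match is a description of these letters and not evidence of binding.

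Genes that work with Hox proteins or act on the clusters were read from lists. Of 9 Hox cofactor genes of the Pbx, Meis and Pknox families, whose proteins bind DNA with Hox proteins, all were at 100 or more on all arrays and 0 passed, with 1 lower and 0 higher at an unadjusted p under 0.05 in limma. Their median log2 change was 0.20. Meis1 had 1062 and 1321 in the controls against 462 and 606, a log2 change of −1.16 ± 0.34 (SE, n = 2; limma adjusted p = 0.245). Pbx2 had −0.73 ± 0.32, Pbx3 0.98 ± 0.47 and Pbx4 0.62 ± 0.34. Of 10 genes of menin and the MLL complex 0 passed (1 lower and 0 higher at an unadjusted p under 0.05), with a median of −0.20. Kmt2a, which encodes MLL1, had −0.59 ± 0.31. Of 18 Polycomb genes, whose products keep silent Hox genes off, 0 passed (0 at an unadjusted p under 0.05), with a median of −0.06 and values from −0.65 for Eed to 0.64 for Cbx8.

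Retinoic acid and Cdx factors switch Hox genes on in the embryo. The list of 19 genes for these inputs also held Cyp26 enzymes, which break retinoic acid down, and Gdf11 and Tgfbr1. Of the 19, 0 passed in limma, with 4 lower and 2 higher at an unadjusted p under 0.05 and a median of −0.22. Rdh10, which makes retinaldehyde, had 3790 and 2754 against 889 and 648, a log2 change of −2.09 ± 0.36 (SE, n = 2; limma adjusted p = 0.104). Aldh1a2, which makes retinoic acid from it, had 1246 and 1135 against 387 and 359, −1.68 ± 0.31 (limma adjusted p = 0.117). Aldh1a1, another enzyme of that step, had 257 and 747 against 2893 and 4542, 3.05 ± 0.58 (limma adjusted p = 0.127). The retinoic acid receptor gene Rarg had −1.01 ± 0.33. The groups did not overlap for any of these 4 genes, with Aldh1a1 in the other direction from the rest. Cdx1 and Cdx4 were under 100 on all 4 arrays.

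Outside the Hox clusters, 0 of 22 neighbouring genes passed in limma (0 lower and 1 higher at an unadjusted p under 0.05), with a median log2 change of −0.03 and a range from −1.01 for Evx1 to 1.43 for Nfe2. Lnpk and Mtx2, which flank Hoxd, had −0.00 and 0.26, Skap2, beside Hoxa, had −0.57, and Calcoco1 and Copz1, near Hoxc, had −0.75 and −0.78. Evx2, the homeobox gene next to Hoxd13, was under 100 on all 4 arrays. Among 19 other homeobox and patterning genes of trunk and limb, Msx1, a gene of the limb bud and neural crest, fell by 5.53 ± 0.46 (SE, n = 2; limma adjusted p = 0.0346), from 5863 and 2754 to 74.8 and 102. The other 18 did not pass, and the list median was −0.12. Pax2, a gene of the kidney and nephric duct, had 3022 and 1389 against 392 and 404, −2.36 ± 0.45, and the limb and branchial arch gene Dlx5 had −1.72 ± 0.38.

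**Figure D4:**
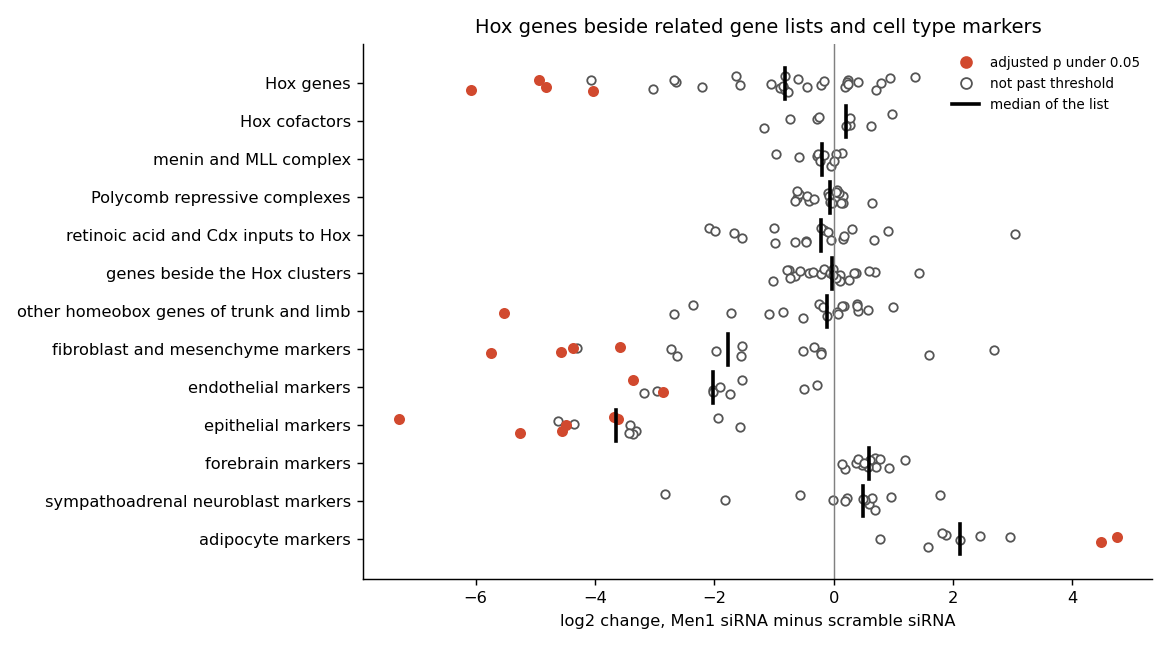
Log2 change (Men1 siRNA minus scramble siRNA) of each Hox gene and of each measured gene in 12 other lists, 1 row per list; filled points have an adjusted p under 0.05 in limma, open points do not, and the black bar is the list's median. The Hox row runs from −6.07 to 1.36 around −0.81, the rows of cofactors, the menin and MLL complex, Polycomb and genes beside the clusters lie around 0, and the fibroblast, endothelial and epithelial rows lie to the left with medians of −1.76, −2.01 and −3.64.

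Markers of other cell types moved with the Hox genes on the same arrays. All 14 epithelial markers were lower with Men1 siRNA without overlap and 6 fell in limma, with a median log2 change of −3.64. Their summed intensity was 59424 and 36172 in the controls against 1675 and 2901, and the cytokeratin gene Krt18 had 9975 and 6196 against 269.5 and 458. Sums weigh bright targets most, and Sprr2f alone gave 23802 and 14082 of these control sums. Of 16 fibroblast and mesenchyme markers 4 fell and 13 were lower without overlap, with sums of 79388 and 74057 against 27557 and 34424. The contractile genes Tagln and Acta2 of the same list lay the other way, at 2.69 ± 0.45 and 1.61 ± 0.42 (SE, n = 2), without passing. Acta2 alone gave 10469 and 14207 of the Men1 siRNA sums, so the sums understate how far the others fell. Of 11 endothelial markers 2 fell and 10 were lower without overlap, with sums of 12080 and 8267 against 2371 and 2466. All 14 forebrain markers, a region that uses no Hox genes, were positive, with a median of 0.59, 7 without overlap and 0 past the threshold, and sums of 31945 and 41335 against 57602 and 50197. The sympathoadrenal list had a median of 0.49, with 0 past the threshold in limma and 2 lower and 1 higher at an unadjusted p under 0.05. Its members ran from −2.83 for the noradrenaline transporter gene Slc6a2 and −1.83 for Gata3 to 1.78 for Ret. The forebrain transcription factor genes Lhx2 and Neurod2 were well above background on every array, at 13150 and 13128 against 20396 and 19875 for Lhx2. Of 9 adipocyte markers 2 rose and all were higher without overlap, with a median of 2.13. The part of these cell types in the Hox values was not tested.

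The scramble siRNA arrays also differed from each other. The 11 lower Hox genes were brighter on replicate 1 than on replicate 2 in 8 of 11 cases, with a median difference of 0.44 on the log2 scale. Over all genes that difference was −0.08, with 44.6% brighter on replicate 1, and over all 31 Hox genes it was 0.08, with 18 of 31. Over the 1857 genes that met the same rule as the 11 it was 0.31, with 68.1%, so the 11 were near the share of all such genes. The epithelial markers differed by 0.72 and the fibroblast markers by −0.06 between the same arrays. What sets the control arrays apart was not tested.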

How the data were processed

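By the labels, total RNA of N2a cells was labelled by a NimbleGen protocol and read on 4 single-colour arrays, although the series text names an Agilent array. Per the file headers, the authors summarised the probes of each target by the robust multi-array average and deposited linear intensities for 44170 targets with gene symbols on mouse build MM9. The scanner software, the background correction and the normalization between arrays were not stated in the sources used here. No array file marks targets above background. The level of 100 was taken because the series' value table holds exactly the 20620 targets at 100 or more on all arrays.

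Intensities were taken to log2 with no pseudocount. Symbols were updated through NCBI gene IDs, for 21583 of 24203 IDs, and each gene was read from its target of highest mean log2 intensity over the 4 arrays. Groups were compared in R 4.3.3 with limma 3.58.1 (lmFit, then eBayes), group being the only term, with two-sided p-values adjusted by Benjamini-Hochberg over 24171 genes. The procedure was tested on simulated data. A gene with both arrays of its dimmer group under 100 is given a bound, the brighter group's mean log2 value against that of 100. Each member past the threshold, or at an absolute log2 change of at least 1 without overlap, is given array by array, and up to 4 members of a list by smallest p. The members, the gene lists and the tests were chosen with earlier results of these data known, so no list was tested as a set. With 2 arrays a group, precision is limited by their number. Same-numbered arrays deviated from their group means with a correlation of −0.175. With 2 arrays a group, crossing the numbers of 1 group gives 0.175 by construction. These values therefore cannot decide whether the numbers pair the arrays, and group was kept as the only term. Image names in the headers carry number 1 for scramble siRNA replicate 1, none for replicate 2, and 2 for both Men1 siRNA arrays. In the value table the scramble siRNA columns hold each other's values for 20617 targets (relative tolerance 1e-04), so which control array is replicate 1 is uncertain; the text follows the per-array files. Some values are not reported here.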

Additional observations from a re-analysis of the deposited data

How the results depend on the processing

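The log2 changes of the 12 Hox genes at an absolute change of at least 1 without overlap were reversed in 0 of 156 values. Hoxc10 came to 0 with a floor at 100. For genes chosen without overlap, leaving out 1 array, a pseudocount or a floor cannot reverse the sign. The replicate blocks, the trended prior and the dim gene filter reuse the same estimate, so this count was largely fixed in advance. Neither this count nor the next covers the fit of each target alone, where the other target of Hoxa7 had 0.46. Of 18 other members, none past the threshold, 8 changed sign somewhere, in 9 of 223 values. With 1 array left out, values ran from −0.068 to 0.52 for Hoxa6, −1.10 to 0.68 for Hoxa13, −0.75 to 0.44 for Hoxb9, −4.71 to 0.29 for Hoxc4, −1.68 to 0.79 for Hoxc8, −0.27 to 0.73 for Hoxc12 and −0.13 to 0.61 for Hoxd1. The mean of all targets gave 0.42 for Hoxa13 and −0.19 for Hoxb13. The median over all Hox genes stayed negative. The calls did not keep their side of the threshold. Hoxa10, Hoxa11, Hoxb8 and Hoxd9 were the 4 lower calls also with quantile normalization, with median centring and with the replicate number as a block, where all genes gave 62 lower and 7 higher. Leaving out each array gave 0 lower Hox calls in every case (0 of all genes), with adjusted p between 0.0768 and 0.256 for these 4 genes. A replicate block with crossed numbers, added after seeing the data, gave 0 lower Hox calls in limma. Crossed numbers are the pairing that the value table's own numbering gives. The value table gave 1 of only 3 Hox genes in it, a floor at 100 gave 1, and the mean of all targets gave 5. A pseudocount of 32 gave 7, leaving out dim genes 8 and a trended prior 8, with Hoxa9, Hoxb6 and Hoxd10 among them each time. No alternative gave a higher Hox call. Wholly lower genes numbered 2 in the value table, and wholly higher ones 0 there and 2 both with dim genes left out and with the floor.

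The median log2 change was −0.60 in the value table, −0.76 with each target alone, −2.14 without dim genes, −0.50 with the pseudocount and −0.39 with the floor, and −0.85 to −0.71 with 1 array left out. The Hoxc median was −0.46 to 0.16 with 1 array left out. Over all genes, lower and higher calls were 85 and 9, against 364 and 54 in the value table, 143 and 12 with each target alone, 588 and 123 with the trended prior, 561 and 116 without dim genes, 235 and 17 with the pseudocount, 6 and 2 with the floor, and 0 and 0 with crossed numbers. The causes were not tested, except that the value table and the dim gene filter test fewer genes. The dim gene filter also keeps genes that are bright in the controls alone, so its Hox count and median are not separate support. Intensities under 100 limit what can be said of 9 members in both groups, and of more members with Men1 siRNA. Only 5 of 31 members were at 100 or more on both Men1 siRNA arrays. Of the 11 lower genes this held for Hoxa10 alone, so the size of the other falls is limited by background.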
